A study of Caenorhabditis elegans with 6 samples.

Results

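The genes described here are those named for protein subunits of the cytosolic ribosome of Caenorhabditis elegans. They are the rows of the deposited table whose names begin with rps (small subunit) or rpl (large subunit) followed by a number. These are 74 of 14700 genes, with 30 in the small and 44 in the large subunit. By this rule rpl-24.2, which RefSeq lists as rsl-24D1, is counted with the large subunit though it may not be a subunit. Messenger RNA was measured by CEL-seq, which counts the 3′ ends of transcripts, in descendants of the QR neuroblast pooled by 2000 cells from first-stage larvae fed for 7 hours. The ΔN-BAR-1 group (3 libraries) had the genotype mab-5(gk670); huIs166; ayIs9; huIs179, and the control group (3 libraries) had mab-5(gk670); huIs166; ayIs9. Both groups therefore carried the mab-5 deletion and 2 transgenes, and they differed by huIs179. The series describes the larvae with huIs179 as producing an N-terminally truncated BAR-1, a β-catenin of the Wnt pathway, in the Q lineage. The comparison asks what canonical Wnt signalling changes in these cells. No label states whether each library had its own culture, and the p-values below therefore rest on a spread that may be technical.

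A cytosolic ribosome joins a small subunit, which decodes the messenger RNA, to a large subunit, which forms peptide bonds. Its proteins are needed in near equal numbers, and their genes are among the most abundantly transcribed in growing cells. In many animals these genes are regulated together with cell growth, in part through the TOR kinase pathway.

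With ΔN-BAR-1, no ribosomal protein gene passed the test. Of 72 members tested, 0 were higher and 0 lower at an edgeR quasi-likelihood adjusted p below 0.05, where 1.57% of all 3447 tested genes were called higher and 0.087% lower. Before adjustment, 0 members were higher and 2 lower at a p below 0.05, beside 8.21% and 3.42% of all tested genes, and DESeq2 and limma-voom also called 0 members. The median log2 fold change of the tested members was −0.27, beside 0.0003 over all tested genes. Of the 72, 64 lay below 0, as did 50% of all tested genes. This median rested on ΔN-BAR-1 replicate 1. Without that library it was −0.01, with 37 of 72 members below 0, and again 0 members were called where 2.77% of 3895 tested genes were called higher and 0.334% lower. The standard errors limited what could be resolved: the median 95% interval of a member ran from −0.99 to 0.46 on the log2 scale, and the intervals of 32 members reached a 2-fold decrease, while those of 3 reached a 2-fold increase.

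Library totals ranged from 68431 to 254362 estimated transcripts, and 1 count corresponded to between 4.11 and 16.5 CPM (counts scaled to the TMM-corrected library size), the coarsest being control replicate 3. The identity of the pools was looked at through marker genes. Of 18 genes listed for the Q lineage, 14 passed the filter, among them unc-86, lin-39 and mab-5. Both groups carried the mab-5 deletion, so the 22 to 106 mab-5 transcripts per library cannot be read as those of an intact gene. Their origin was not tested. Of the marker lists for other tissues, 2 of 11 intestine genes (elt-2 and ges-1), 2 of 7 pharynx genes (pha-4 among them), 4 of 15 hypodermis and seam genes (dpy-7 among them) and 5 of 10 germline genes (deps-1 among them) had 0 transcripts in all 6 libraries. The others were detected in at least 1 library. Of these lists the pharynx gene tbx-2, with 43, 24 and 14 transcripts with ΔN-BAR-1 and 52, 82 and 12 in control, and the hypodermis and seam genes lin-26, vab-10, mup-4 and grd-10 passed the filter. Of the muscle myosin genes, unc-54 was abundant in each library, myo-3 had 0 or 1 transcript, and the pharyngeal myo-1 and myo-2 reached 19 and 7.

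Members made up a large share of every library and a smaller one in ΔN-BAR-1 replicate 1. Their transcripts were 7.05%, 12.1% and 11.3% of the total in ΔN-BAR-1 replicates 1 to 3, against 11.97%, 13.3% and 13.2% in control replicates 1 to 3. The 95% Wilson interval was 6.94% to 7.17% in ΔN-BAR-1 replicate 1 and 12.92% to 13.43% in control replicate 3, the shallowest library. Such intervals describe counting error only. They take estimated transcripts as independent counts and are therefore narrower than the counting error of the identifiers. The summed level was 72846, 137061 and 131098 CPM in ΔN-BAR-1 replicates 1 to 3, against 131539, 138874 and 148470 CPM in control replicates 1 to 3. That is 113668 ± 35479 CPM with ΔN-BAR-1 and 139628 ± 8491 CPM in control libraries (SD, n = 3 each). ΔN-BAR-1 replicate 2 lay inside the control range and replicate 3 just under it, and the difference between the group means, −25959 CPM, was smaller in size than the SD of the ΔN-BAR-1 group.

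**Figure D1:**
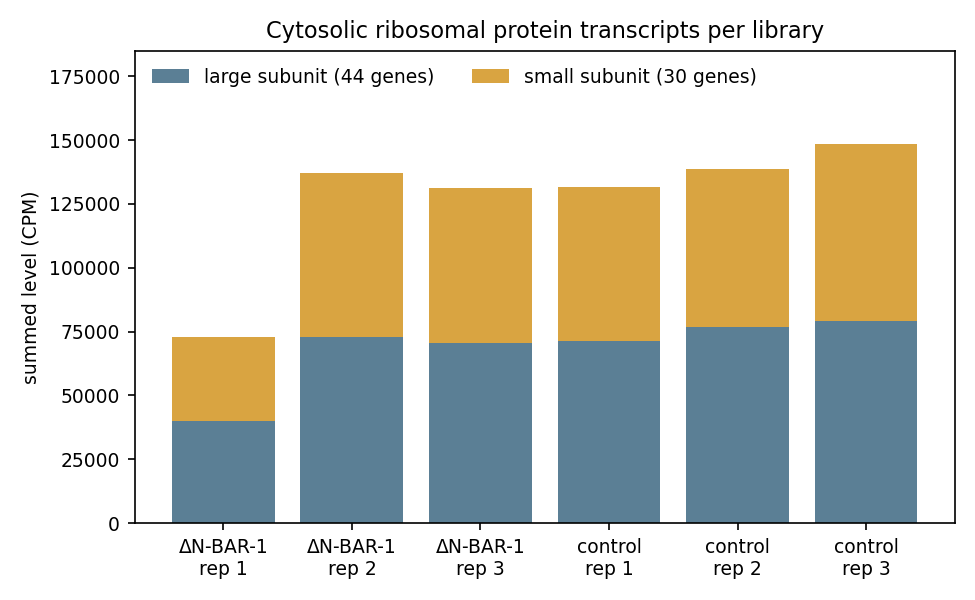
Stacked bars give the summed level (CPM) of the 44 large subunit and 30 small subunit genes in each of the 6 libraries, with the 3 ΔN-BAR-1 libraries on the left. ΔN-BAR-1 replicate 1 stands at 72846 CPM and the other 5 libraries between 131098 and 148470 CPM.

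Both subunits took part in this in near equal measure. Small subunit genes supplied 44.9%, 46.7% and 46.1% of the summed member level in ΔN-BAR-1 replicates 1 to 3, and 45.7%, 44.7% and 46.7% in control replicates 1 to 3. The balance of the subunits thus stayed within 2.07 percentage points over libraries whose totals of these genes differed by 2.04 times. The median log2 fold change was −0.28 for the 30 tested small subunit genes and −0.26 for the 42 tested large subunit genes.

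ΔN-BAR-1 replicate 1 was the lowest of the 6 libraries for 65 of 72 members, 90.3%, where it was the lowest for 22.5% of all tested genes. The 7 exceptions were rpl-2, rpl-6, rpl-7, rpl-7A, rpl-24.2, rpl-37 and rpl-39. Relative to the mean of replicates 2 and 3 on the log2(CPM + 1) scale, replicate 1 was lower for 69 members, with a median difference of −0.93, and for 30 of them by at least 1. Over all tested genes that median difference was 0.07, and over the 271 other tested genes with a mean level at or above the members' 5th percentile it was −0.34. The members moved as a block: the library median of the tested members stood at −0.87 in ΔN-BAR-1 replicate 1 and between 0.007 and 0.05 in the other 5 libraries. About that median, the spread of the members in replicate 1 (scaled median absolute deviation 0.27) was inside the range of the other libraries (0.13 to 0.30).

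**Figure D2:**
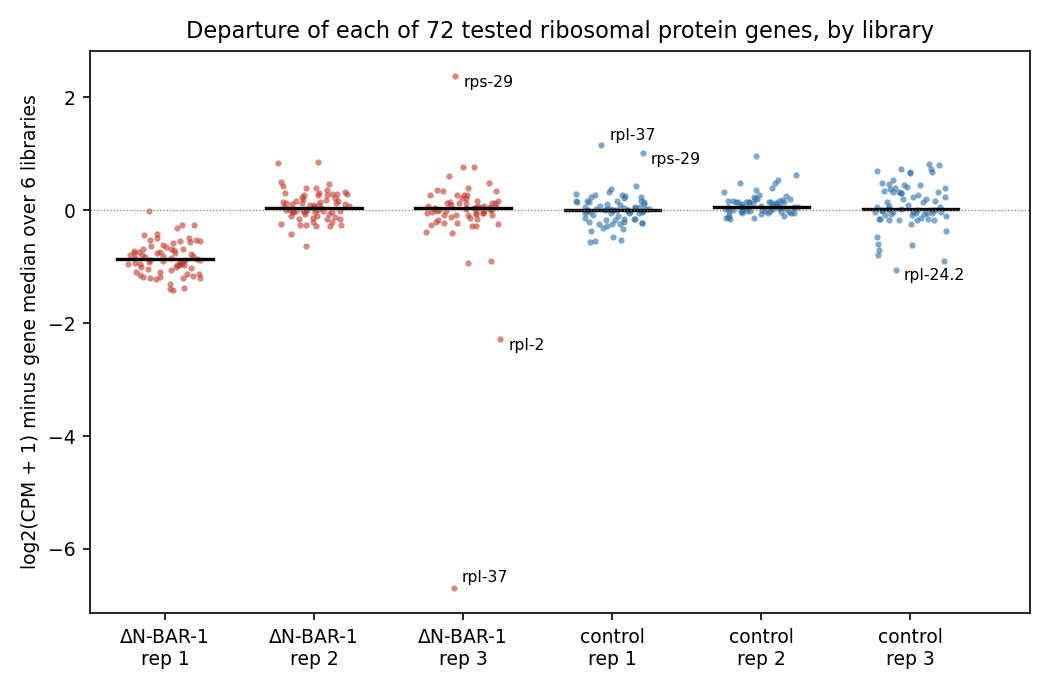
Points are the 72 tested members in each library, as log2(CPM + 1) minus the gene's median over the 6 libraries; black bars are library medians, and genes more than 1 from their library's median are named. The bar of ΔN-BAR-1 replicate 1 lies at −0.87 and those of the other libraries near 0, and the points farthest from a bar are rpl-37, rps-29 and rpl-2 in ΔN-BAR-1 replicate 3.

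Other components of translation were low in the same library to differing degrees. Beside rps and rpl genes the cytosolic ribosome holds the stalk proteins (rla-0, rla-1, rla-2), proteins made as fusions to ubiquitin or a ubiquitin-like domain (ubq-2, ubl-1), and the scaffold RACK1 (rack-1). Of these 6 genes 0 were called higher or lower, the median log2 fold change was −0.35, and their sum was 4370 CPM in ΔN-BAR-1 replicate 1 against 8209.51 and 8701 CPM in replicates 2 and 3 and 7926 to 9633 CPM in control libraries. The stalk gene rla-2 stood at 505, 1632 and 1293 CPM in ΔN-BAR-1 replicates 1 to 3, against 1584, 1806 and 1647 CPM in control replicates 1 to 3 (log2 fold change −0.55 ± 0.37 SE, edgeR adjusted p = 0.648). The log2 fold changes of the others were −0.43 ± 0.33 for rla-0, −0.21 ± 0.36 for rla-1, −0.27 ± 0.34 for ubl-1, −0.20 ± 0.32 for ubq-2 and −0.56 ± 0.98 for rack-1 (SE; edgeR adjusted p 0.721 to 0.910). All of them but rack-1 were lowest in ΔN-BAR-1 replicate 1. The counts of rack-1 were erratic (36, 56 and 20 with ΔN-BAR-1; 45, 7 and 36 in control).

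Elongation factors and their partners, 6 tested, had a median of −0.21 with 0 called in either direction. The elongation factor gene eef-1A.1, which delivers aminoacyl-tRNA to the ribosome, stood at 3354, 4509 and 4333 CPM in ΔN-BAR-1 replicates 1 to 3, against 6299, 5108 and 8515 CPM in control replicates 1 to 3. Its groups did not overlap, but it did not pass the test (log2 fold change −0.71 ± 0.33 SE, edgeR adjusted p = 0.414); its near-identical copy eef-1A.2 could share reads with it and stood at −0.20. The median difference between ΔN-BAR-1 replicate 1 and the other 2 ΔN-BAR-1 libraries was −0.52 for this list and −0.84 for the stalk, fusion and RACK1 genes.

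Genes for building ribosomes did not share that level. Ribosome biogenesis genes, 17 tested, had a median of −0.12 with 0 called, and replicate 1 was higher than the other ΔN-BAR-1 libraries by a median of 0.08. The fibrillarin gene fib-1, a nucleolar methyltransferase, had 168, 132 and 191 CPM with ΔN-BAR-1 and 121, 148 and 428 CPM in control (edgeR adjusted p = 0.866). The 17 tested genes for mitochondrial ribosomal proteins had 0 called, a median of 0.04 and a replicate 1 difference of 0.13. Genes of the TOR pathway, 9 tested, had a median of 0.12 with 0 called and a replicate 1 difference of 0.46. The Rag GTPase gene raga-1 stood at 348, 229 and 152 CPM with ΔN-BAR-1 and at 192, 107 and 132 CPM in control (log2 fold change 0.76 ± 0.40 SE, edgeR adjusted p = 0.506). These lists were lower in level than most members. Tested biogenesis genes had mean levels of 55.8 CPM (wdr-12) to 572 CPM (byn-1), beside a member median of 1889 CPM. The replicate 1 difference also varied with level, at 0.07 over all tested genes and −0.34 over the 271 other highly expressed genes. The part of level in this contrast was not tested.

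Levels of cell type markers also differed between libraries. Body wall muscle markers, all 18 of which were in the table, summed to 7441 CPM in ΔN-BAR-1 replicate 1, 15494 and 21813 CPM in replicates 2 and 3, and 10011 to 17177 CPM in control libraries; replicate 1 was lowest for 7 of the 12 tested and highest for unc-97 and unc-112. Most of that sum came from unc-54, at 2272, 7218 and 15580 CPM in ΔN-BAR-1 replicates 1 to 3 and 4460 to 5649 CPM in control libraries, and act-4, an actin gene, at 3239.53, 5785 and 3251 CPM with ΔN-BAR-1 and 2920.2 to 6884 CPM in control libraries. In ΔN-BAR-1 replicate 3 unc-54 had used every identifier, so its level there and the sum are not exact. A gene at that ceiling is given 3182 transcripts in this column and 1597 on the scale of the others. The level of unc-54 and the sum in ΔN-BAR-1 replicate 3 are thus raised relative to that scale. Close to the ceiling of 256 lay also unc-54 in ΔN-BAR-1 replicate 2 (255 identifiers) and control replicate 2 (253), and act-4 in ΔN-BAR-1 replicate 2 (253). Those levels are coarse, as 1 more identifier adds 30.2 estimated transcripts already at 247. The 16 other muscle markers summed to 1930 CPM in ΔN-BAR-1 replicate 1, 2491 and 2982 CPM in replicates 2 and 3, and 2410.2 to 4644 CPM in control libraries. Hypodermis and seam markers summed to 250.0 CPM in replicate 1, 574 and 759 CPM in replicates 2 and 3, and 490.0 to 609 CPM in control libraries, with 4 of 15 at 0 everywhere and grd-10 at 0 in replicate 1. Pan-neuronal genes were highest in ΔN-BAR-1 replicate 1, at 9784 CPM, but also stood above control in ΔN-BAR-1 replicates 2 and 3, at 6090 and 8294 CPM. Control libraries had 4197 to 4775 CPM, and 3 of 18 tested genes were called higher. These genes can mark descendants of a neuroblast as well as other cells. The part of cell makeup in the ribosomal level of replicate 1 was not tested. In pooled cells, fewer cells of a type and less RNA per cell cannot be told apart.

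**Figure D3:**
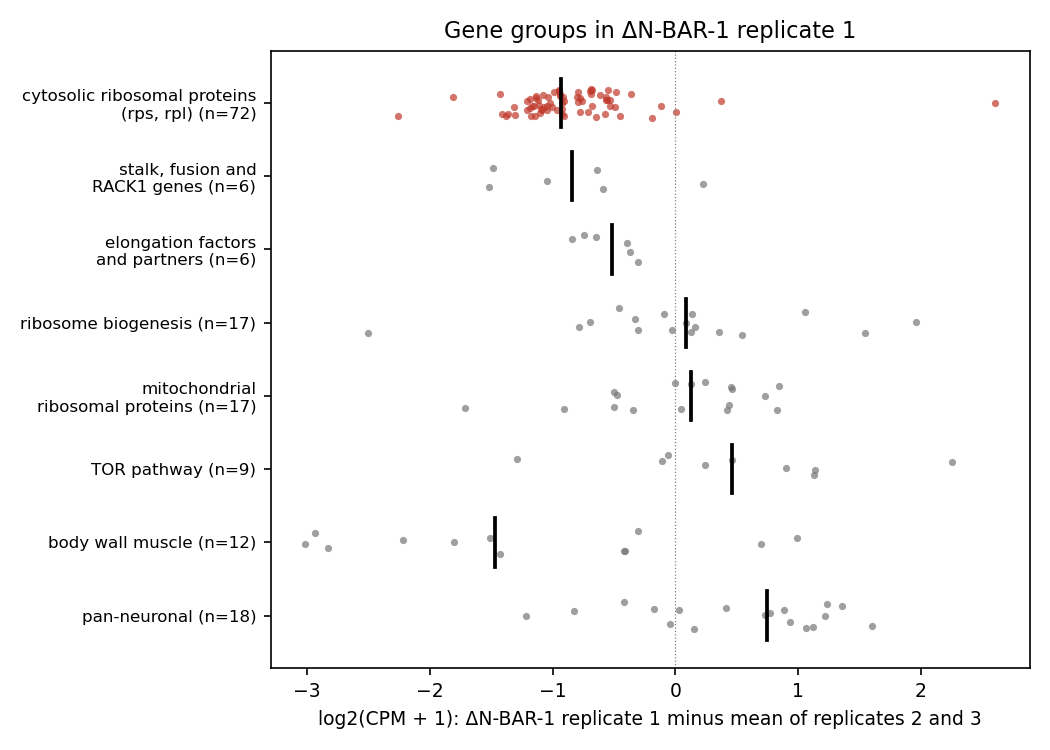
Each point is a tested gene, placed by the difference between ΔN-BAR-1 replicate 1 and the mean of ΔN-BAR-1 replicates 2 and 3 on the log2(CPM + 1) scale; black bars are list medians. The medians are −0.93 for the ribosomal protein genes, −0.84 for the stalk, fusion and RACK1 genes, −0.52 for elongation factors, near 0 for biogenesis and mitochondrial ribosome genes, −1.47 for muscle markers and 0.75 for pan-neuronal genes. The muscle median rests in part on genes with few transcripts in replicate 1, such as mup-2 (2), mlc-1 (3), unc-87 (5) and mlc-2 (9), while unc-54 had 418.

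The members with the smallest p were all lower with ΔN-BAR-1. The gene rpl-3 encodes a protein next to the peptidyl transferase centre. It stood at 1728, 2206 and 2233 CPM in ΔN-BAR-1 replicates 1 to 3, against 3246, 3220.45 and 4315 CPM in control replicates 1 to 3. Its groups did not overlap, and the log2 fold change was −0.80 ± 0.32 (SE; edgeR adjusted p = 0.269). The gene rps-0 encodes the small subunit protein known in humans as RPSA. It had 1065, 1825 and 1606 CPM with ΔN-BAR-1 and 2549.54, 2406 and 2602 CPM in control, again without overlap (−0.75 ± 0.32 SE, edgeR adjusted p = 0.333). Leaving out ΔN-BAR-1 replicate 1 moved rpl-3 to −0.69 and rps-0 to −0.55.

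Groups that did not overlap were found for 7 members, all lower with ΔN-BAR-1, which is 9.72% of those tested beside 7.08% of all tested genes in that direction. In the higher direction there were 0 members, beside 10.4% of all tested genes. This split rested on ΔN-BAR-1 replicate 1. Without it, 7 members were higher and 7 lower without overlap, beside 16.2% and 13.9% of all tested genes. Leaving out each of the other libraries gave 9 to 21 lower members and 0 higher ones. The lower members numbered 21 without ΔN-BAR-1 replicate 2, 13 without ΔN-BAR-1 replicate 3 and 15 without control replicate 1. No share over all tested genes was computed for these fits. With 1 library fewer, groups separate more readily: 13.9% of all tested genes were lower without ΔN-BAR-1 replicate 1, beside 7.08% with all libraries. The larger counts therefore cannot be read as a larger difference. Beside rpl-3 and rps-0, the 7 members with all libraries were rpl-4, rpl-5, rpl-19, rpl-21 and rps-2. The gene rps-2, whose protein lies near the entry of the mRNA channel, had 1065, 2181 and 2321 CPM with ΔN-BAR-1 and 2464, 2451 and 3804 CPM in control (−0.64 ± 0.35 SE, edgeR adjusted p = 0.539). Leaving out replicate 1 moved it to −0.36. The gene rpl-5, whose protein carries 5S ribosomal RNA, had 1424, 2181 and 2042 CPM with ΔN-BAR-1 and 2407.5, 2538 and 3129 CPM in control (−0.51 ± 0.32 SE, edgeR adjusted p = 0.615), and moved to −0.34 without replicate 1. For rpl-4, rpl-19 and rpl-21 the log2 fold changes were −0.40, −0.38 and −0.42 with all libraries, and −0.21, −0.22 and −0.21 without replicate 1. In each of these the value of ΔN-BAR-1 replicate 1 was the lowest of the 6.

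Among the lower members by p were also rpl-2, rpl-7A and rpl-7, and these 3 were below every control library in both ΔN-BAR-1 replicates 1 and 3, with replicate 3 the lower. The gene rpl-2 encodes the protein known in humans as RPL8, at the peptidyl transferase centre. It had 1309.95, 2293 and 446 CPM in ΔN-BAR-1 replicates 1 to 3, against 2209, 2155 and 3804 CPM in control replicates 1 to 3 (−1.005 ± 0.48 SE, edgeR adjusted p = 0.447). When ΔN-BAR-1 replicate 3 was left out, its log2 fold change was −0.61, and when replicate 2 was left out, −1.68. The gene rpl-7A stood at 1468, 2481 and 1126 CPM with ΔN-BAR-1 and at 2386, 1954 and 3607 CPM in control (edgeR adjusted p = 0.548). The gene rpl-7, a different large subunit protein despite the shared number, stood at 859, 1174 and 622 CPM with ΔN-BAR-1 and at 1257, 1148 and 1532 CPM in control (edgeR adjusted p = 0.562).

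With all libraries 8 tested members had a log2 fold change above 0, and without ΔN-BAR-1 replicate 1 there were 35. The 6 of them with the smallest p were rps-17 (0.18 ± 0.34 SE), rpl-24.2 (0.18 ± 0.35), rpl-39 (0.19 ± 0.38), rps-28 (0.21 ± 0.43), rps-22 (0.15 ± 0.31) and rpl-43 (0.16 ± 0.35), with edgeR adjusted p between 0.913 and 0.926. Without ΔN-BAR-1 replicate 1 they stood at 0.47, 0.22, 0.48, 0.61, 0.35 and 0.47 in the same order, and without ΔN-BAR-1 replicate 3 at −0.04, 0.03, −0.25, −0.34, 0.04 and 0.009. The gene rpl-39 encodes a small protein of the exit tunnel for nascent chains, and had 603, 1042 and 1659.84 CPM with ΔN-BAR-1 against 902, 1349 and 593 CPM in control. None of these groups of libraries was separated.

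**Figure D4:**
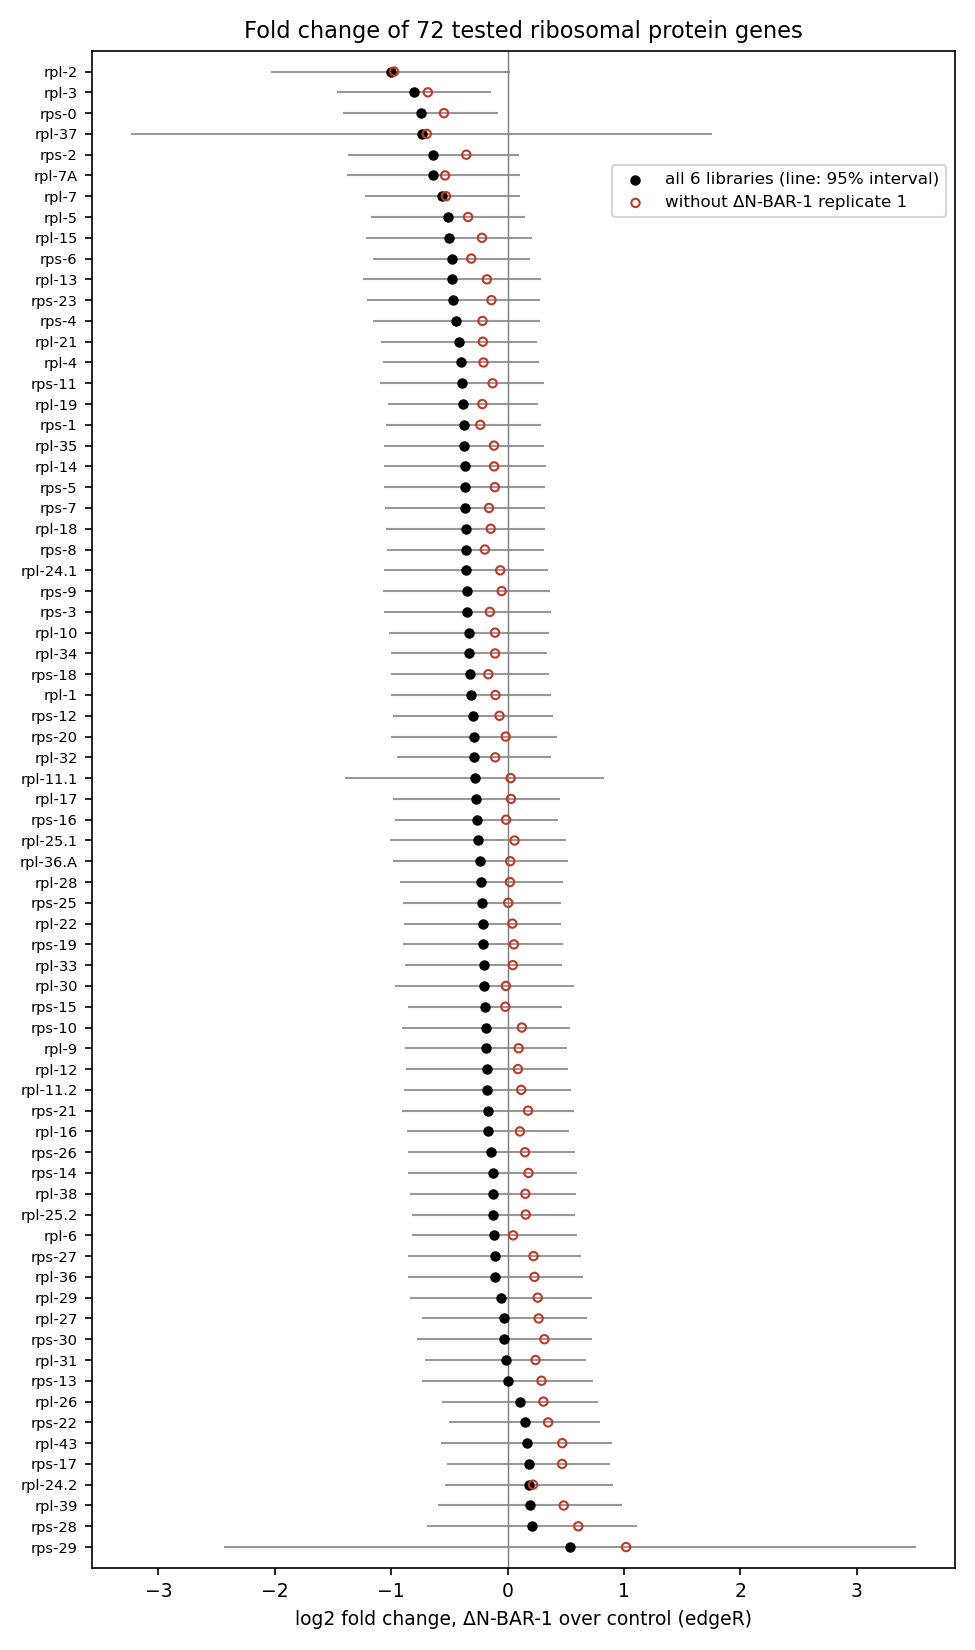
Filled points are log2 fold changes (ΔN-BAR-1 over control, edgeR) of the 72 tested members with 95% intervals as lines, ordered by value; open red points are the values without ΔN-BAR-1 replicate 1. With all libraries 64 points lie below 0 around a median of −0.27, and without replicate 1 the open points centre on −0.01.

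Expressed as a percent of all member transcripts of a library, a measure that removes the shift common to the members, 3 members were higher and 1 lower without overlap of the groups, 4.17% and 1.39% of the 72. These are descriptions with no test, and no share over all tested genes was computed for this measure. By CPM, groups did not overlap for 10.4% of all tested genes in the higher direction and 7.08% in the lower. Both shares of the members were below those, so the counts do not set the members named below apart. The gene rps-0 made up 1.46%, 1.33% and 1.23% in ΔN-BAR-1 replicates 1 to 3, against 1.94%, 1.73% and 1.75% in control replicates 1 to 3. The gene rps-22, which encodes the protein known in humans as RPS15A, made up 1.25%, 1.11% and 1.09% with ΔN-BAR-1 and 0.788%, 0.874% and 0.832% in control. The gene rps-17 made up 0.806%, 0.883% and 0.986% with ΔN-BAR-1 and 0.583%, 0.684% and 0.688% in control. The gene rpl-26 made up 1.40%, 1.30% and 1.16% with ΔN-BAR-1 and 0.777%, 1.13% and 0.965% in control.

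Mean levels of the tested members spanned 51.4 times. As 3′ ends are counted, each transcript gives 1 tag whatever its length, and the levels below are in that sense per transcript. Of the 50 genes with the highest mean level in the table, 17 were members, and of the top 100, 45 were. The median tested member had 1889 CPM, and the median tested gene 127 CPM. The highest was rps-18, at 3210 ± 808 CPM with ΔN-BAR-1 and 4015 ± 643 CPM in control libraries (SD, n = 3 each). It was followed by rps-12, at 2797 ± 830 CPM with ΔN-BAR-1 and 3442 ± 456 CPM in control libraries. Next came rpl-3, at 2056 ± 284 CPM with ΔN-BAR-1 and 3594 ± 625 CPM in control libraries. Both rpl-10 (2398 ± 768 CPM with ΔN-BAR-1, 3031 ± 299 CPM in control) and rps-8 (2351 ± 562 CPM with ΔN-BAR-1, 3029.51 ± 602 CPM in control) lay close below. Neighbours in this order differed by less than the larger of their SDs in the ΔN-BAR-1 libraries. The lowest tested were rpl-11.1, rpl-37, rpl-24.2, rps-29 and rpl-30. The gene rpl-24.2, which RefSeq lists as rsl-24D1 and which is related to a factor of large subunit assembly in yeast, stood at 295 to 372 CPM with ΔN-BAR-1 and 148 to 362 CPM in control libraries. In ΔN-BAR-1 replicate 1 it was not low, at 304 CPM.

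The number of molecular identifiers bounded these high values. With 256 identifiers per gene, no member reached the ceiling in any library, but the highest had used 214, 245 and 234 identifiers in ΔN-BAR-1 replicates 1 to 3 and 226, 247 and 173 in control replicates 1 to 3. Over 200 identifiers had been used by 1, 34 and 37 members with ΔN-BAR-1, and by 9, 49 and 0 members in control. At 200 identifiers 1 more adds 4.61 estimated transcripts, and at 247 it adds 30.2, so a member of a deep library is measured more coarsely than its count implies. Counted in distinct identifiers with no correction, the median log2 fold change was −0.37. Members were then 5.98%, 8.31% and 8.02% of identifiers with ΔN-BAR-1 and 9.17%, 7.97% and 11.5% in control. Such values depend on depth. The deepest library, control replicate 2, had the 7.97%, and the shallowest, control replicate 3, had the 11.5%. With the correction they stood at 13.3% and 13.2% of transcripts.

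Some members have a second copy. Reads of near-identical copies can be split between them by the counting, so single values are uncertain. Of the genes for RPL11, rpl-11.1 made up 3.03%, 2.79% and 3.75% of the transcripts of both copies in ΔN-BAR-1 replicates 1 to 3, against 2.77%, 3.74% and 4.11% in control replicates 1 to 3, so rpl-11.2 supplied nearly all. Of the pair rpl-25.1 and rpl-25.2, which RefSeq lists as rpl-23A.1 and rpl-23A.2, the second made up 34.9%, 31.2% and 35.3% with ΔN-BAR-1 and 36.2%, 34.4% and 24.4% in control. In both pairs the groups overlapped. The name rpl-36.A is listed as rpl-36A in RefSeq and is not a copy of rpl-36; they stood at −0.23 and −0.10.

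The gene rpl-37 was listed at 0 in ΔN-BAR-1 replicate 3, beside 15 and 36 transcripts in ΔN-BAR-1 replicates 1 and 2, and 32, 31 and 4 in control replicates 1 to 3. RefSeq lists it as rpl-37.2 and the row W01D2.1 as rpl-37.1. W01D2.1 had 80, 168 and 138 transcripts with ΔN-BAR-1 and 200, 376 and 34 in control (log2 fold change −0.87 ± 0.37 SE, edgeR adjusted p = 0.344), so rpl-37 was 15.8%, 17.6% and 0% of the pair with ΔN-BAR-1 and 13.8%, 7.62% and 10.5% in control. By the 95% Wilson interval the 0 allowed up to 2.71%. A further row under a locus tag, Y37E3.8, is rpl-27A in RefSeq and stood at −0.36 ± 0.34 (SE; edgeR adjusted p = 0.794). These 2 rows were looked up after the values were seen.

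ΔN-BAR-1 replicate 3 also held the other member that stood farthest from its fellows. The gene rps-29 encodes a small zinc-binding protein of the small subunit. It had 119.6, 203 and 1640.25 CPM in ΔN-BAR-1 replicates 1 to 3, against 639, 489 and 181 CPM in control replicates 1 to 3. Its log2 fold change was 0.54 ± 1.14 (SE; edgeR adjusted p = 0.931). It turned to −1.51 when ΔN-BAR-1 replicate 3 was left out, and was 1.02 when replicate 1 was. Departures of more than 1 from the library median numbered 0, 0 and 3 in ΔN-BAR-1 replicates 1 to 3 (rpl-2, rpl-37 and rps-29 in the last) and 2, 0 and 1 in control replicates 1 to 3 (rpl-37 and rps-29 in the first, rpl-24.2 in the last). The 3 in ΔN-BAR-1 replicate 3 are 4.17% of the tested members, while over all tested genes, about their own library median, 10.1% departed by more than 1 in that library and 4.79% to 17.1% in the others. Among the 271 other genes at or above the members' 5th percentile in mean level, 6.64% departed that far in the same library. In the other libraries that share was 2.58% to 13.7%. By number, then, the members' departures in ΔN-BAR-1 replicate 3 were below both shares. The column of ΔN-BAR-1 replicate 3 was the one in which the identifier correction had been computed with another scale; whether other steps also differed, and their part in these values, was not tested.

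The 2 members that did not pass the filter were rpl-31b and rpl-42. The row rpl-31b had 1 transcript in ΔN-BAR-1 replicate 1, 1 in control replicate 2 and 0 in the others, beside rpl-31 with 158, 268 and 398 transcripts with ΔN-BAR-1 and 192, 351 and 86 in control. The gene rpl-42 was listed at 0 in all 6 libraries. In the WBcel235 annotation, which need not be the one used for counting, exons of 3 members overlap another protein-coding gene on the same strand. These are rpl-5, rpl-7 and rps-4, and reads in such an overlap could be assigned to either gene. Exons of 8 members, rpl-2 among them, overlap a gene on the opposite strand. There the reads would be ambiguous only if the counting ignored strand, which the sources do not state.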

How the data were processed

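As deposited by the authors, the table holds estimated counts per gene, corrected for identifier collisions and not normalised between libraries. Per the labels' protocols, CEL-seq was used with CEL-seq2 library preparation. The aligner, annotation and counter are not given in the sources. From the deposited values, undoing the correction for chance identifier collisions (256 identifiers) gave whole identifier numbers within 0.02 for at least 99.96% of values per library. The values of ΔN-BAR-1 replicate 3 were on another scale of that correction.

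Estimated counts were rounded. All 14700 genes were filtered with filterByExpr (min.count 10, min.total.count 15), leaving 3447, and tested with edgeR 4.0.16 in R 4.3.3 (TMM, robust quasi-likelihood F test, two-sided, group as the only term, 3 against 3 libraries). P-values were adjusted by Benjamini-Hochberg over all tested genes, with a threshold of 0.05. The common biological coefficient of variation was 0.321. CPM use TMM-scaled library sizes. Pairs of libraries of a group differed beyond counting error (chi-square per degree of freedom 2.33 to 8.53). The script was tested on simulated data. Alternatives were other scalings and filters, DESeq2 1.42.0, limma-voom (limma 3.58.1), a replicate block, single libraries left out, identifier treatments and thinning.

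The members, gene lists and tests were chosen with earlier results of these data known. Named members were the 6 with the smallest p per direction, the 5 highest and 5 lowest in level, those sharing a number, and those failing the filter; rpl-4, rpl-5, rpl-6, rpl-19, rpl-21 and rpl-26 were named after their values were seen. Of 74 members, 73 matched the WBcel235 annotation and had a RefSeq symbol, 16 of them another one. Coordinates are left out because the files name no build.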

Additional observations from a re-analysis of the deposited data

How the results depend on the processing

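The count of called members was 0 under each of the 18 alternatives run, and the median log2 fold change of the tested members stayed below 0 in each, from −0.46 without ΔN-BAR-1 replicate 2 to −0.01 without ΔN-BAR-1 replicate 1. The difference in summed level (ΔN-BAR-1 minus control) ran from −40122 to −4864 CPM over the fits that left out 1 library, the extremes being without ΔN-BAR-1 replicate 2 and 1. It was −25959 CPM with all libraries. With the replicate number as a block, 0 members were called and the median was −0.34. The numbers gave no sign of pairing: same-numbered libraries correlated at −0.12, −0.07 and −0.0006 after subtraction of group means, and differently numbered ones at −0.05 to 0.10. No member was at the identifier ceiling, so leaving such members out changed nothing. Of 27 tested named members, 15 changed sign in at least 1 alternative, all of them without a call, and 482 of 482 values stayed on the same side of the threshold. The signs of rpl-2, rpl-3, rpl-7, rpl-7A, rps-0 and rps-2 held in every alternative run; the lowest adjusted p among the named members was 0.0620, for rps-29 without ΔN-BAR-1 replicate 3. In control replicate 3, the shallowest library, rpl-37 and rpl-11.1 rested on 4 and 6 transcripts.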

Other observations

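Uneven values within pairs of related genes in ΔN-BAR-1 replicate 3 were also seen outside the ribosome. The hsp70-family genes F44E5.4 and F44E5.5 had 3182 and 16 estimated transcripts in that library, beside 124 and 117 in ΔN-BAR-1 replicate 1, 130 and 103 in ΔN-BAR-1 replicate 2, 710 and 710 in control replicate 1, 367 and 398 in control replicate 2, and 96 and 74 in control replicate 3. The value of 3182 is the one given to genes that had used every identifier in that column. The pair was picked after its values were seen.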
